A study of Mus musculus with 24 samples.

Results

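The comparison set formalin-administered mice against control mice in the dorsal neurons of the lumbar spinal cord. Its members were the nuclei whose deposited cell type is a dorsal excitatory (DE) or dorsal inhibitory (DI) population: 1795 of the 18000 nuclei of the series, of which 1072 came from 9 control samples and 723 from 10 formalin samples. They fell into 16 DE populations with 1097 nuclei and 9 DI populations with 698 nuclei. All mice were of the outbred ICR/CD-1 stock, male and female, 8 to 11 weeks old, and were described only as Control, formalin-administered or rotarod-challenged. A formalin mouse had received 30 µl of 2% paraformaldehyde under the plantar skin of each hindpaw after a period of habituation, and no injection is described for a control mouse. The time from injection to tissue collection was not given in the sources used here. Dorsal root ganglia were removed before nuclei were isolated and captured in droplets (Drop-seq), where each RNA molecule receives a unique molecular identifier (UMI).

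The dorsal horn is the first relay for pain, itch, temperature and touch from the skin. Nociceptive fibres from the paw end on excitatory neurons, which use glutamate and many neuropeptides, and on inhibitory neurons, which use GABA and glycine and hold that excitation in check. A neuron that has recently been active switches on immediate early genes within minutes. Fos, which codes for a subunit of the AP-1 transcription factor, is the one most used to mark neurons of the dorsal horn that responded to a painful stimulus, and formalin in the paw is a standard stimulus of this kind. Later genes of the same response code for secreted peptides, receptors and synaptic proteins.

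Because Fos carried the clearest difference, the 250 bases before its start are shown first. The gene lies on chromosome 12 at 85473890-85477273 of GRCm38, and the printed stretch is chr12:85473640-85473889 of the plus strand, from RefSeq on GRCm38.p6. Capitals mark TGACG, the core of the cAMP response element (CRE), to which the activity-dependent factor CREB binds.
Fos promoter: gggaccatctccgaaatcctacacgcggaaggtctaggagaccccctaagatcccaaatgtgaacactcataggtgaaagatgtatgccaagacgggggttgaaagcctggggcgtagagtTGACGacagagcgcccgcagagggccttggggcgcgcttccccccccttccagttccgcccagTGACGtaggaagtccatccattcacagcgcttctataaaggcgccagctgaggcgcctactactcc
The window held the 5 letters at 2 places, beginning at -129 and -66 from the start. On either strand they were present in 17.8% of 32851 such windows of the genome, and in those of 13 of the 17 rapid activity genes that had a window. A match is a description of the letters and not of a bound site.

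A sample gave between 26 and 185 dorsal nuclei and between 35974 and 582088 dorsal UMIs, with more in control samples (median 380733 UMIs) than in formalin samples (median 193790). The labels put every sample in brain, while the extraction protocol describes lumbar cord. The deposited cell types held their markers in control samples: Slc17a6, the glutamate transporter of these excitatory cells, was at 113.6 CPM (UMIs per 1000000 of a sample's summed UMIs) in DE and 12.8 in DI, and Gad2, a GABA-synthesising enzyme, at 10.0 in DE and 118.1 in DI. The ventral markers En1 and Gata3 were at 0 in both. A total of 3 controls have titles that end in cx, with no meaning given, so results are also given without them. The design text speaks of 10 formalin mice, yet samples numbered i and i+5 looked alike: 9 of 10 lay closest to that partner across 3944 genes, and 5 of 5 such pairs matched in sex-linked genes. Results are therefore also given with each pair summed into 1 sample. Nothing says how the samples were prepared as replicates beyond this, so p-values measure the spread between samples. Only 4 dorsal nuclei had a barcode that another sample also held.

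Fos RNA rose in dorsal neurons of formalin mice. The rate was 0.729 ± 1.64 CPM (SD, n = 9) in control samples and 9.99 ± 7.41 CPM (SD, n = 10) in formalin samples, a difference of 9.27 CPM (2-sided exact permutation p = 0.0038, 0.0114 adjusted over the 3 cell sets). Of the control samples, 7 had no Fos UMI, control 7 had 1 UMI (1.72 CPM) and control 1 had 2 UMIs (4.84 CPM). The formalin samples ran from 0 through a median of 12.3 CPM to 18.8 CPM. In 7 of them Fos lay above every control sample, while formalin 1, 6 and 8 had none, and these had 59891, 35974 and 125137 dorsal UMIs to find it in. With 3 UMIs in all control samples and 23 in all formalin samples, the pooled rates differed 13.0-fold, with a 95% exact interval of 3.93 to 67.7 for counting error. That interval takes each UMI as independent and is too narrow, because 8 of the 14 formalin nuclei with Fos held more than 1. The share of nuclei with a Fos UMI was 0.238 ± 0.513% in control and 1.63 ± 1.31% in formalin samples (SD, n = 9 and 10, exact permutation p = 0.00851, adjusted 0.0255). With formalin pairs summed the rate was 10.1 ± 6.75 CPM (SD, n = 5, exact permutation p = 0.00500, adjusted 0.0142), and without the 3 cx controls the adjusted exact permutation p was 0.0465. Thinning each nucleus to 500 UMIs left 0 UMIs in control and 5 in formalin samples and ended the call (difference 11.9 CPM, adjusted exact permutation p = 0.260). Leaving out control 1 raised the ratio of the group means from 13.7 to 46.5.

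**Figure D1:**
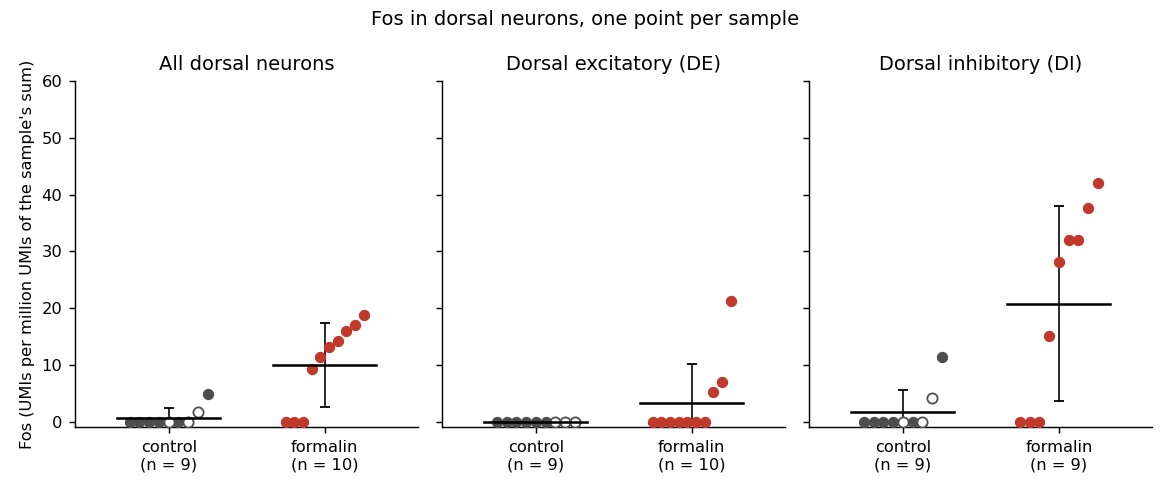
Fos rate in CPM for each control (grey) and formalin (red) sample, in all dorsal neurons, in DE and in DI; open circles are the 3 cx controls, the bar is the mean and the whisker is 1 SD, stopped at 0. In all dorsal neurons 7 of 10 formalin points lie above the highest control point of 4.84 CPM, and 3 lie at 0.

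Most of that Fos was in inhibitory neurons. In DI the rate was 1.73 ± 3.86 CPM in control (SD, n = 9) and 20.8 ± 17.2 CPM in formalin samples (SD, n = 9; formalin 1 had 6 DI nuclei and was left out), an increase of 19.02 CPM (exact permutation p = 0.0109, adjusted 0.0164). Formalin values in DI ran from 0 to 42.0 CPM with 6 samples above every control, and control values from 0 to 11.3 CPM. In DE no control sample had a Fos UMI, which over 1763885 UMIs allows a rate of up to 1.70 CPM. The DE formalin samples held 6 UMIs in 3 samples, 4 of them in formalin 10, for 3.35 ± 6.78 CPM (SD, n = 10), and the difference did not pass (exact permutation p = 0.211). The difference itself, DI minus DE within a sample, was 1.73 ± 3.86 CPM in control and 17.0 ± 21.1 CPM in formalin samples (SD, n = 9 and 9, exact permutation p = 0.0462, also 0.0462 adjusted over the 2 such differences tested). The other neurons with a population, of the mid and ventral families, were at 0.887 ± 1.22 CPM (8 UMIs, SD, n = 9) and 3.35 ± 3.47 CPM (11 UMIs, SD, n = 10). Of those 11 UMIs, 5 were in the family labelled VC, whose pooled rate was 1.61 CPM in control (1 of 162 nuclei with Fos) and 19.4 CPM in formalin samples (3 of 81 nuclei), beside 2.15 and 22.9 CPM pooled over DI. Dorsal minus the whole set of other neurons was -0.158 ± 1.30 CPM in control and 6.64 ± 7.27 CPM in formalin samples (SD, n = 9 and 10, exact permutation p = 0.0125, adjusted 0.0250). These 2 differences were added after the Fos rates had been seen.

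By nucleus, 14 of 723 formalin nuclei and 3 of 1072 control nuclei held a Fos UMI. The formalin nuclei came from 7 samples, 10 of them in DI and 4 in DE, and 8 of the 14 held more than 1 Fos UMI, whereas each control nucleus held 1. Population DI-8 gave 5 of the 14, from formalin 2, 7 and 9, 3 of them from formalin 7. Formalin 2 and 7 are partners in the i and i+5 numbering, and most of these 5 nuclei came from that pair. The 5 were 9.09% of the 55 formalin nuclei of DI-8 (exact 95% interval 3.02 to 19.9%). None of its 79 control nuclei had one, which allows up to 3.797% by the 3-count limit and 4.56% as the exact upper bound. These bounds cover counting error only, with nuclei pooled over samples, and the difference for this population was not tested. DI-8 carried Slc6a5, the neuronal glycine transporter, at 167 CPM, which was below its level in DI-6 (218 CPM) and DI-9 (194.5 CPM). DI-3, the population with the most Nos1 (nitric oxide synthase, 432 CPM), gave 2 of its 25 formalin nuclei and 0 of 56 control nuclei. The remaining 7 were single nuclei of DI-2, DI-4, DI-9, DE-4, DE-7, DE-9 and DE-14, and the DE-7 nucleus held the most Fos, 3 UMIs. In oligodendrocytes, the glia that form myelin, 1 of 1014 formalin and 1 of 837 control nuclei held a UMI, at median depths of 958.5 and 1264 UMIs against 1897 in formalin DE and 2281 in formalin DI nuclei. In the nuclei of the meningeal and Schwann class it was 9 of 681 formalin and 0 of 744 control nuclei, so Fos was also detected outside neurons. The pooled formalin rate of that class was 13.6 CPM (median depth 1027 UMIs), beside 12.35 CPM in formalin dorsal neurons and 5.37 CPM in formalin DE. A higher formalin rate was thus not particular to dorsal neurons. Endothelial and vascular nuclei (0 of 224 formalin, 3 of 287 control) and microglia (0 of 74, 1 of 50) went the other way. These classes were not tested. The 14 formalin nuclei held other rapid activity genes at 240.1 CPM (8 nuclei with a UMI, median depth 2808), against 61.3 CPM in formalin nuclei without Fos (84 of 709 nuclei, median depth 1993). Egr1, a zinc finger transcription factor of the same response, was seen in 4 of these 8. The formalin value of 240.1 CPM rested on 12 UMIs. In control nuclei the other rapid activity genes were at 199.9 CPM with Fos (3 UMIs in 1 of 3 nuclei) and 57.6 CPM without.

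The other rapid activity genes were too sparse for a call. Of the list of 23, which included Fos, none passed the gene filter described below. The group mean was higher in formalin samples for 16 genes and lower for 6, and Egr2 had no UMI. The summed list was at 51.4 ± 24.4 CPM (9.67 to 87.2, SD, n = 9) in control and 76.2 ± 14.9 CPM (51.4 to 92.6, SD, n = 10) in formalin samples, and without Fos at 50.7 ± 23.5 and 66.2 ± 13.8 CPM. The groups overlapped, with 3 formalin samples above every control. Egr1 was at 6.69 ± 4.48 CPM (26 UMIs, SD, n = 9) in control and 11.3 ± 7.49 CPM (25 UMIs, SD, n = 10) in formalin samples. Dusp1, a phosphatase that ends MAP kinase signalling, was at 0.659 ± 1.01 and 3.35 ± 5.50 CPM from 3 and 4 UMIs. Npas4, an activity-dependent transcription factor, was at 6.02 ± 6.03 and 8.23 ± 8.65 CPM, and Arc, a synaptic protein that is induced with activity, at 2.80 ± 3.12 and 3.36 ± 3.67 CPM. Junb, a partner of Fos in AP-1, was at 2.31 ± 2.21 and 3.24 ± 5.14 CPM, and the nuclear receptor gene Nr4a1 at 6.37 ± 4.33 and 7.18 ± 5.64 CPM. The unfiltered fit gave log2 fold changes of -0.06 for Npas4, -0.05 for Arc and -0.13 for Nr4a1, against their higher formalin means. The same held for Jun (-0.54), Egr3 (-0.29) and Fosl2 (-0.04). Group means weigh each sample equally, whatever its depth, so the 16 to 6 split is not a rise of the whole list. Over all genes, that fit had positive values for 11356 of 24581. Among the genes with lower formalin means, Klf10 was at 6.64 ± 4.77 and 5.74 ± 5.87 CPM, Nr4a3 at 3.67 ± 7.07 and 2.78 ± 8.79 CPM and Gadd45b at 3.13 ± 3.65 and 2.13 ± 3.66 CPM.

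Across all genes, no gene passed in the dorsal sums. A gene was tested if it had enough counts in at least as many samples as the smaller group held, from either group. Such genes numbered 3944, and edgeR's quasi-likelihood test called 0 at a Benjamini-Hochberg adjusted p of 0.05 (0%), with a smallest adjusted p of 0.195. At an unadjusted p of 0.05 there were 270 genes (6.85%), 121 with a positive (3.07%) and 149 with a negative (3.78%) log2 fold change, and DESeq2 also called 0. The median standard error of a log2 fold change was 0.19 and the median absolute change 0.14. No gene had formalin and control samples without overlap. DE neurons gave 0 of 2368 genes (0%), with 150 unadjusted (6.33%; 3.29% positive and 3.04% negative) and 50.3% of all values positive. DI neurons gave 0 of 1792 (0%), with 97 unadjusted (5.41%; 3.01% positive and 2.4% negative) and 50.9% of all values positive, and DESeq2 called 0 in both. Without the filter on low counts, edgeR tested 24581 genes in the dorsal sums and called 6 (0.0244%): Fos, with a log2 fold change of 3.02 (SE 0.68, adjusted p = 0.0385), and 5 lower genes. Among those, Prss22 had UMIs only in the cx controls.

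**Figure D2:**
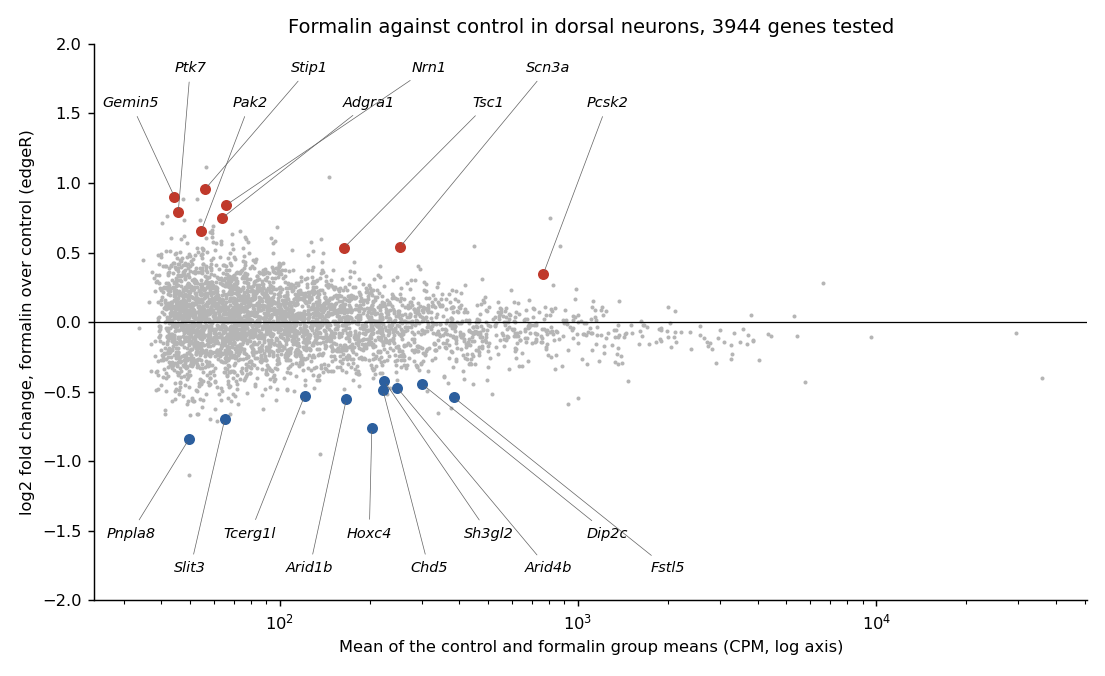
The log2 fold change of formalin over control in dorsal neurons from edgeR (y axis) against the mean level in CPM on a log axis, for the 3944 genes tested. Of the genes with the smallest p, 9 positive (red) and 10 negative (blue) are named; none passed the adjusted threshold of 0.05, and they lie at the edge of a cloud centred on 0.

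The genes with positive values and the smallest p, 9 of which are given here, are described as values, since none passed. Scn3a (chromosome 2:65457118-65567627) codes for a voltage-gated sodium channel subunit that is prominent in development and returns in sensory neurons after nerve injury. Control samples ran from 138.4 through 193.1 to 289.2 CPM (lowest, median, highest) and formalin samples from 200.4 through 290.7 to 405.1 CPM, with 10 of 10 above the control median and 5 above every control. The log2 fold change was 0.54 (SE 0.14, edgeR adjusted p = 0.275), and 0.44 without the cx controls.

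Stip1 (chromosome 19:7020702-7039967) codes for a co-chaperone that joins heat shock chaperones to each other. Its formalin samples, from 51.8 to 150.3 CPM with a median of 68.9, lay above every control in 8 of 10 cases, and the controls ran from 16.8 through 33.0 to 55.2 CPM (log2 fold change 0.96, SE 0.23, adjusted p = 0.195). Gemin5 (chromosome 11:58120002-58168539), which binds small nuclear RNAs for assembly into splicing particles, had 9 of 10 formalin samples above every control, from 33.4 through 57.3 to 79.9 CPM against 19.3 through 33.0 to 39.4 CPM (log2 fold change 0.90, SE 0.23, adjusted p = 0.275). These 2 genes had the most formalin samples outside the control range among the 9.

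Nrn1, which codes for neuritin, a surface protein of neurites that is itself induced by activity, was at 40.5 ± 14.6 CPM (SD, n = 9) and 91.6 ± 55.3 CPM (SD, n = 10), with 7 formalin samples above every control and the highest 2 at 166.8 and 217.1 CPM. Tsc1, a brake on mTOR signalling, was at 129.4 ± 30.6 and 198.9 ± 52.6 CPM. Pcsk2, the convertase that cuts neuropeptide precursors, was at 659.1 ± 142.3 and 871.6 ± 137.7 CPM, and Pak2, a kinase of the actin cytoskeleton, at 42.3 ± 8.90 and 66.6 ± 14.2 CPM. The adhesion receptor gene Adgra1 and the Wnt co-receptor gene Ptk7 had log2 fold changes of 0.75 (SE 0.22) and 0.79 (SE 0.25).

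Of the 10 genes with negative values and the smallest p, Fstl5 came first. Fstl5 (chromosome 3:76074270-76710019) codes for a secreted follistatin-like protein, and ran from 323.1 through 411.8 to 618.9 CPM in control and from 217.1 through 311.7 to 433.2 CPM in formalin samples (log2 fold change -0.54, SE 0.15, adjusted p = 0.371). Formalin samples lay below every control in 7 of 10 cases. Hoxc4 (chromosome 15:103018934-103036852), a homeobox gene of body axis position, ran from 144.6 through 233.8 to 394.3 CPM in control and from 99.8 through 144.5 to 226.4 CPM in formalin samples, with all 10 below the control median (log2 fold change -0.76, SE 0.20, adjusted p = 0.371). Both genes were among those called without the filter. The cx controls averaged 560.6 CPM for Fstl5 and 338.9 CPM for Hoxc4 against 395.5 and 213.7 CPM in the other 6, and without them the log2 fold changes were -0.28 and -0.42.

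Arid1b, a subunit of the BAF remodelling complex, was at 196.3 ± 35.6 CPM (SD, n = 9) and 138.0 ± 40.4 CPM (SD, n = 10), with 5 formalin samples below every control. Chd5, a neuronal chromatin remodeller, was at 255.1 ± 90.6 and 188.4 ± 32.9 CPM, and Arid4b, of the Sin3 corepressor complex, at 282.2 ± 95.3 and 213.4 ± 28.4 CPM. Chd5 and Arid4b were high in cx controls, and without those samples their log2 fold changes went from -0.49 to -0.21 for Chd5 and from -0.47 to -0.13 for Arid4b, while Arid1b went from -0.56 to -0.44. Sh3gl2, the synaptic endophilin of vesicle recycling, was at 251.6 ± 41.3 and 197.2 ± 31.7 CPM. Slit3, an axon guidance ligand, was at 81.3 ± 27.6 and 49.5 ± 21.4 CPM, and was the 1 gene of these 10 whose change was larger without the cx controls (log2 fold change -0.70 with and -0.84 without them). Pnpla8, a phospholipase of mitochondria and peroxisomes, was at 0 in 2 formalin samples and at 34.3 ± 22.1 CPM overall against 64.9 ± 16.6 CPM. Dip2c and Tcerg1l had log2 fold changes of -0.45 (SE 0.13) and -0.53 (SE 0.16), and -0.20 and -0.49 without the cx controls.

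**Figure D3:**
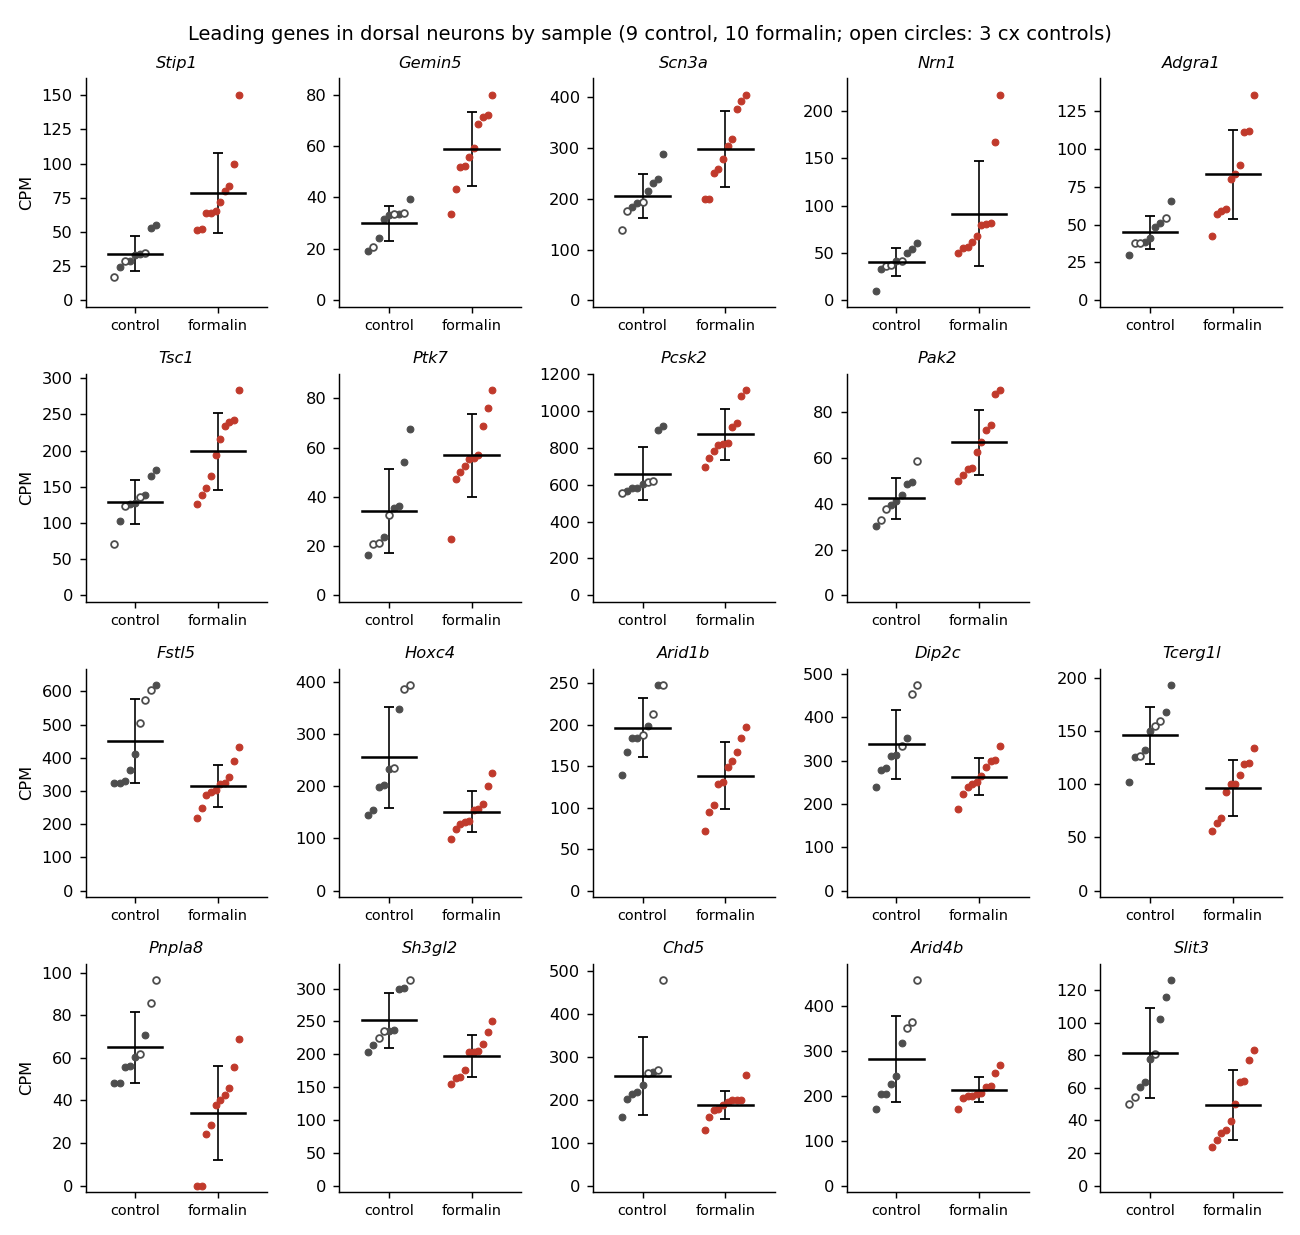
CPM in the summed dorsal nuclei of each sample for 19 of the genes with the smallest p, 9 with positive values (upper rows) and 10 with negative values (lower rows); grey is control, open circles are the 3 cx controls, red is formalin, the bar is the mean and the whisker 1 SD. Gemin5 has 9 of 10 formalin points above every control point, while for Chd5, Arid4b and Dip2c the highest control point is a cx control.

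RNA of myelin cells was present in the dorsal sums. The summed level of 11 oligodendrocyte markers in dorsal neurons was 1702 ± 1055 CPM (SD, n = 9), from 522.2 to 3340 CPM, in control and 1249 ± 356.7 CPM (SD, n = 10), from 753.2 to 1840 CPM, in formalin samples. The cx controls were at 1603, 3340 and 3209 CPM and the other 6 controls at 522.2 to 2454 CPM, so 2 cx controls were the highest and 1 lay within the range of the others. Mbp, a main protein of myelin, had a log2 fold change of -0.62 (SE 0.32), and -0.17 without the cx controls; of the list only Trf was at 0. Of the genes called without the filter, Aspa is itself an oligodendrocyte gene. The part of this RNA in the differences above was not tested. With the cx controls left out, 15 of the 19 genes had an unadjusted p under 0.05, all 19 had the same sign, and 0 of 3769 genes passed (smallest adjusted p 0.991, 156 unadjusted). With the formalin pairs summed, all 19 had the same sign and 0 of 6145 genes passed (smallest adjusted p 0.902). The 19 genes had been chosen for a small p on these same samples, which favours a kept sign and a small p. Their signs and the 15 are therefore given only as a description.

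A sum over nuclei can differ because populations differ in number or because RNA per nucleus differs. If every population kept its control level, the shift in population shares alone would give a change with a median size of 0.03 on the log2 scale over 3944 genes and of at most 0.23 among the 19 genes, for Nrn1. This rests on that assumption, and the part of cell makeup in the differences was not tested. Gene length went with the direction. Across 3894 genes with 1 annotated span, log2 fold change and span had a Spearman rho of -0.30, a description across genes that share libraries. The median span was 79.9 kb for all genes tested, 49.9 kb for the 9 genes with positive and 258.2 kb for the 10 with negative values. Which reads the authors counted for a gene, and on which strand, was not given in the sources used; the gene models of Sh3gl2, Nrn1 and Arid4b overlap those of other coding genes.

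DE and DI neurons were also fitted apart. The 19 genes had been chosen on the sum of both, so their signs in the parts (12 tested in DE and 10 in DI, all with the sign of the sum) are given only as a description; Fstl5 in DE was at -0.29, and at 0.19 without the cx controls. In DI the gene nearest the threshold was Scn3a: controls ran from 121.8 through 161.9 to 265.0 CPM and formalin samples from 110.3 through 314.4 to 447.7 CPM, with 6 of 9 above every control and 1 below (log2 fold change 0.86, SE 0.19, edgeR adjusted p = 0.0771). Scn3a passed in DI when rotarod samples shared the fit (adjusted p = 0.0495) or when control 5, formalin 2 or formalin 6 was left out (0.0333, 0.0223 and 0.0376). It did not pass without the cx controls (log2 fold change 0.76, adjusted p = 0.681), with formalin pairs summed (0.80, 0.359) or with DESeq2 (0.85, 0.294), and leaving out 1 sample gave adjusted p from 0.0223 to 0.388. In DE it was at 236.2 ± 52.8 CPM (SD, n = 9) and 308.1 ± 69.9 CPM (SD, n = 10), a log2 fold change of 0.37 (SE 0.16). The test of DI minus DE for Scn3a gave 0.45 (95% interval 0.05 to 0.85, unadjusted p = 0.0309, adjusted 1.00). Next in DI were Hoxc4 (log2 fold change -1.08, SE 0.26, adjusted p = 0.170; -0.67 without the cx controls) and Thsd7b (-0.94, SE 0.25, adjusted p = 0.322). Snhg11, a long RNA kept in neuronal nuclei, was at 5937 ± 1094 CPM in control and 7944 ± 1422 CPM in formalin DI samples, all 9 above the control median.

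In DE the smallest p belonged to Lhfpl3, whose product is a tetraspan membrane protein, at 774.3 ± 120.8 CPM in control and 545.7 ± 89.1 CPM in formalin samples, with 6 of 10 below every control (log2 fold change -0.49, SE 0.13, edgeR adjusted p = 0.452). Tmem130 was at 101.7 ± 33.8 and 165.2 ± 35.5 CPM in DE, 8 of 10 formalin samples above every control, and Pitpnm2, a lipid transfer protein gene, at 58.3 ± 21.3 and 120.6 ± 54.9 CPM. For Tmem130 the DI means were 142.8 and 142.7 CPM.

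The test of DI minus DE called 0 of 2602 genes (0%), with 85 unadjusted (3.27%; 1.5% positive and 1.77% negative), a smallest adjusted p of 0.920 and 51% of all differences positive; DESeq2 was not run for it. The smallest p was that of Bcl2, which codes for a protein that blocks cell death: DI minus DE was -1.25 (SE 0.33), with DI means of 94.9 ± 39.9 and 40.1 ± 18.0 CPM in control and formalin samples and DE means of 175.9 ± 57.9 and 169.9 ± 56.2 CPM. Gabrg3, a GABA-A receptor subunit gene, was at 1201 ± 116.2 and 972.0 ± 176.9 CPM in DE and at 721.2 ± 123.1 and 862.7 ± 173.5 CPM in DI. Vps13b, a gene of lipid transport at the Golgi, had the same arrangement, at 403.9 ± 56.6 and 311.9 ± 66.2 CPM in DE and at 361.4 ± 65.5 and 492.7 ± 99.6 CPM in DI, where 8 of 9 formalin samples lay above every control. The test of dorsal minus other neurons called 0 of 4995 genes (0%), with 204 unadjusted (4.08%; 2.08% positive and 2% negative), a smallest adjusted p of 0.996 and 49.4% of all differences positive. Thsd7b had its smallest p, at -0.65 (SE 0.18). Scn3a followed at 0.57 (SE 0.16): in the other neurons its mean was 177.9 CPM in control and 155.9 CPM in formalin samples.

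**Figure D4:**
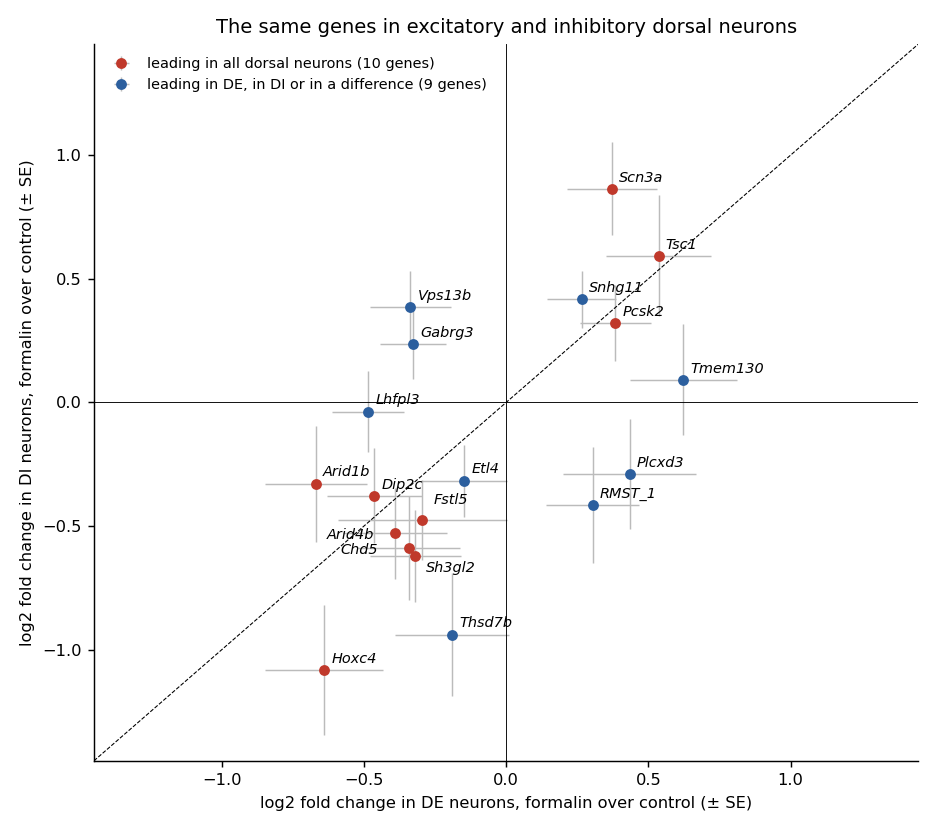
The log2 fold change of formalin over control in DE (x axis) and in DI neurons (y axis), each with its standard error, for the named genes that were tested in both; the dashed line marks equal change. The 10 genes in red were chosen on the sum of both families, which favours a shared sign, and Gabrg3, Vps13b, Plcxd3 and RMST_1 (blue) were chosen for a difference between the families, which favours opposite signs.

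Lists of genes with roles in pain signalling gave 0 calls each; over all genes tested the median log2 fold change was 0.00 and 50.1% had positive values. Peptides and their receptors were mostly too sparse: of 16 dorsal horn neuropeptide genes in the table only Penk, the enkephalin precursor, was tested, at 72.6 ± 39.6 CPM (SD, n = 9) and 70.2 ± 39.0 CPM (SD, n = 10). The log2 fold change of Penk was 0.13 (SE 0.34, edgeR adjusted p = 0.956), against its lower formalin mean. Of 20 peptide and opioid receptor genes Oprm1, the mu opioid receptor, and Tacr3, the neurokinin B receptor, were tested, at 73.3 ± 35.6 and 67.4 ± 43.0 CPM for Oprm1. The summed neuropeptide list was at 278.2 ± 101.2 CPM in control and 271.0 ± 113.4 CPM in formalin samples.

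Receptors and channels were well covered. Of 21 glutamate receptor genes tested, 7 had positive and 14 negative values (median log2 -0.07); the kainate receptor gene Grik2 was at 1285 ± 182.9 and 1071 ± 210.0 CPM (log2 fold change -0.28, SE 0.11, adjusted p = 0.620), and the NMDA receptor gene Grin3a at 424.6 ± 104.4 and 526.5 ± 164.1 CPM. Of 14 GABA and glycine receptor genes, 9 were positive and 5 negative (median 0.05), with Gabbr2, a GABA-B subunit, at 357.5 ± 44.1 and 305.1 ± 67.8 CPM. Voltage-gated channels gave 15 positive and 17 negative of 32 (median -0.06). Beside Scn3a, the smallest p was that of Cacna1c, an L-type calcium channel pore, at 971.3 ± 113.5 and 790.0 ± 147.9 CPM (log2 fold change -0.31, SE 0.11, adjusted p = 0.451).

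The kinases and nitric oxide signalling genes linked to sensitisation of the dorsal horn split 11 to 11 of 22, with Mtor at 86.5 ± 32 and 114.4 ± 43.9 CPM. Synaptic scaffold and adhesion genes split 7 positive to 8 negative of 15. Transcription factors of the dorsal horn had 2 positive and 9 negative values of 11 (median -0.10), among them the excitatory factor gene Lmx1b at 88.8 ± 29.5 and 76.9 ± 25.2 CPM. Of 5 delayed activity genes tested, 3 were positive and 2 negative: Nrn1 (above) stood highest and Sorcs3, a sorting receptor, lowest, at 458.3 ± 96.0 and 370.0 ± 161.8 CPM. Heat shock genes gave 3 positive of 3 tested (median 0.17); Hsp90aa1 was at 81.7 ± 24.0 and 119.7 ± 46.2 CPM, and the summed list of 12 at 400.2 ± 75.6 and 517.6 ± 127.8 CPM. Inflammatory genes gave 2 positive of 2, Nfkb1 and Stat3. Mitochondrially encoded genes gave 2 positive and 4 negative of 6, and their summed level was 1744 ± 1022 and 1697 ± 709.6 CPM. None of these differences passed the test.

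Genes known from earlier results of these data are given as values. Prr16 was at 461.5 ± 80.0 CPM (SD, n = 9) in control and 362.9 ± 65.7 CPM (SD, n = 10) in formalin samples (log2 fold change -0.35, SE 0.12, edgeR adjusted p = 0.451). Gm28905 was at 83.1 ± 35.5 and 53.2 ± 29.9 CPM, and Hirip3, which codes for a histone-binding partner of HIRA, at 37.4 ± 16.3 and 55.2 ± 28.7 CPM, with 4 formalin samples above every control. Rgs2, a regulator of G protein signalling that is itself induced by activity, did not reach the filter, at 6.96 ± 5.87 and 19.9 ± 16.8 CPM with 4 formalin samples above every control.

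With each formalin sample kept apart, the makeup of the dorsal nuclei did not pass a test either. DI neurons were 41.3 ± 2.84% of dorsal nuclei in control samples (37.5 to 46.7%, SD, n = 9) and 35.3 ± 9.32% in formalin samples (15.0 to 46.2%, SD, n = 10; exact permutation p = 0.0701, 0.140 adjusted over 4 measures). With the formalin pairs summed the share was 34.7 ± 4.97% (SD, n = 5) and passed (adjusted exact permutation p = 0.0160). Dorsal neurons were 54.2 ± 9.28% of neurons with a population in control and 60.7 ± 4.43% in formalin samples (adjusted exact permutation p = 0.140). The authors had placed 63.9 ± 11.6% of neurons in a population in control and 52.1 ± 18.6% in formalin samples, and a dorsal nucleus had a median of 2267 ± 485.1 and 2007 ± 544.0 UMIs (adjusted exact permutation p = 0.169 and 0.287). Of the 25 populations, 0 passed as a share of dorsal nuclei; the smallest p belonged to DI-3, at 5.63 ± 2.35% in control and 3.10 ± 2.42% in formalin samples (exact permutation p = 0.0361, adjusted 0.538). DI-8, with the most Fos nuclei, was at 6.58 ± 3.00% and 8.05 ± 4.57% (exact permutation p = 0.421, adjusted 0.737).

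**Figure D5:**
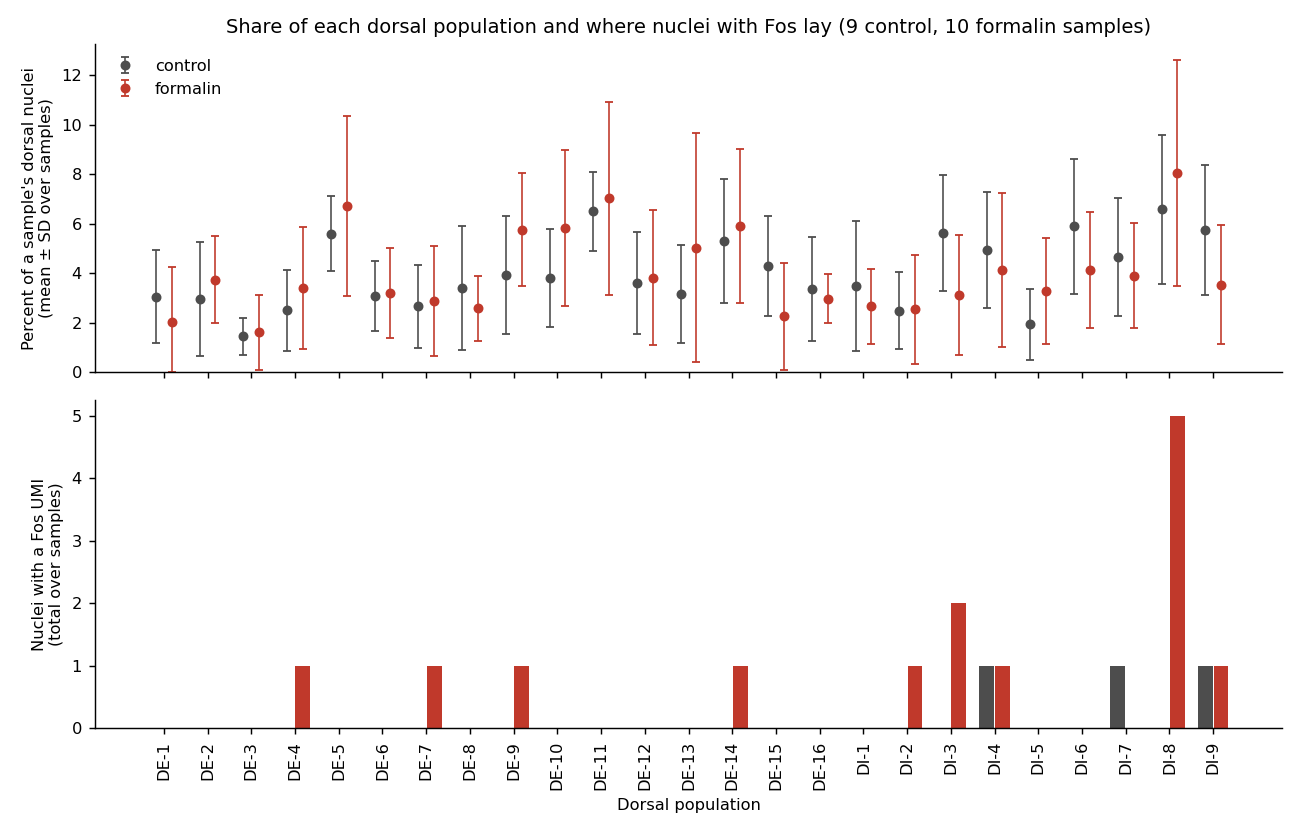
Upper panel, each dorsal population as a percent of a sample's dorsal nuclei, mean and SD over 9 control (grey) and 10 formalin (red) samples, whiskers stopped at 0; lower panel, nuclei with at least 1 Fos UMI, totalled over the samples of a group. No population passed, DI-3 had the smallest p (5.63% in control and 3.10% in formalin samples), and DI-8 holds 5 of the 14 formalin nuclei with Fos.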

How the data were processed

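Per the file headers, the authors deposited 1 table of whole-number UMI counts per gene and nucleus, with 32962 genes, and a table of cell types. Aligner, annotation, intron counting and doublet treatment were not given in the sources used; builds mm10 and GRCm38 come from the submitters' processing notes. No doublets were called here. Raw UMIs were summed per sample over DE and DI nuclei (at least 10 nuclei) and tested with edgeR 4.0.16 (TMM, filterByExpr by group, robust quasi-likelihood, Benjamini-Hochberg at 0.05) in R 4.3.3. Interactions had sample as block, and SE is |log2 fold change| over the square root of F. Fos and cell shares had exact permutation tests of the means (92378 regroupings for 9 against 10). CPM are UMIs per 1000000 of that sum; intervals and limits (3 counts for a count of 0) cover counting error only. Alternatives were DESeq2 1.42.0, its size factors, no filter, 20 nuclei, all groups, thinning to 500 UMIs, covariates, merged pairs, and left-out samples. Fits were tested on simulated data.

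Named genes were those called or, with few called, the 10 of each direction in dorsal sums and the 5 in the other fits with the smallest p (leaving out predicted and Riken-only symbols; a minimum of 20 CPM applied to called genes, of which there were none), the 2 of each list with the smallest p, fixed activity genes, and Sorcs3, Gm28905, Prr16, Hirip3, Nrn1 and Rgs2 from earlier results; Aspa, Prss22 and the other genes called without a filter were named after their values were seen. A few genes chosen by this rule are not reported here and were not replaced. Members and lists were chosen with earlier results of these data known.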

Additional observations from a re-analysis of the deposited data

Results flagged for a closer look

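In 8 of 63 groups of samples tested, 1 sample lay far from the rest by Dixon's test at 95%. Chance gives this in about 1 in 20 groups only where values are normally spread and groups are separate. Here the groups shared samples, and in each Fos group named below 7 samples had no Fos UMI, so the 8 cannot be set against that rate. Among the leading genes the flagged groups were Stip1 in formalin samples (highest 150.3 CPM) and Chd5 in control samples (highest 478.2 CPM, a cx control). Of the sparse activity genes these were Dusp1 (highest 16.7 CPM) and Junb (highest 15.4 CPM), both in formalin samples. For Fos they were the control sample at 4.84 CPM in dorsal neurons and 11.3 CPM in DI neurons, and the formalin sample at 21.2 CPM in DE neurons. The lowest DI share of dorsal nuclei, 15.0%, stood apart in the formalin group and came from formalin 1.

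The Fos difference between formalin and control was larger in DI than in DE neurons (exact permutation p = 0.0462) and larger in dorsal neurons than in the other neurons with a population taken as 1 set (exact permutation p = 0.0125). The first of these had 9 formalin samples and a formalin SD of 21.1 CPM around a mean of 17.0 CPM. Both comparisons were added after the Fos rates had been seen. Neither was run after thinning or without the cx controls.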

How the results depend on the processing

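Counts were limited by depth: no rapid activity gene reached the filter, and Fos rested on 26 UMIs. Without the filter the calls were 6 in dorsal, 1 in DE (Col25a1) and 4 in DI neurons (Prr5l, Hoxc4, Luc7l3 and Rbm25), with a median log2 fold change of -0.13 in DI; unfiltered DESeq2 moved the medians to 0.27, 0.32 and 0.30 and called 0. Sharing the fit with rotarod samples gave 1 call in DI (Scn3a). Leaving out 1 sample gave 0 to 1 calls in dorsal (1 without control 3) and 0 to 1 in DI neurons (Scn3a). Thinning ended both Fos calls (differences of 11.9 CPM in dorsal and 28.9 CPM in DI neurons). Merging pairs moved the DI share difference from -6.02 to -6.65 percentage points and past the threshold. The cause was not tested.

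No paired analysis was possible because the labels give control samples no number shared with formalin samples. The 74 named gene results followed were the leading genes, list members and genes from earlier results in dorsal sums, and the leading genes of each other fit in that fit. The alternatives reused the samples on which the leading genes had been chosen, so a kept sign is a description only. Of the 2061 values of the named gene results under alternatives, 2045 kept their sign and 16 reversed, none of them called. These were Penk at -0.0036 with median UMIs as covariate, Tacr3 at -0.052 with DESeq2 and -0.060 without the filter, Stat3 at -0.00352 without the filter, mt-Nd4 at 0.098 without the cx controls and, with pairs also merged (added after the data were seen), mt-Nd4 at 0.065, Nfkb1 at -0.0180 and Stat3 at -0.0360. Leaving out 1 sample gave -0.0056 to 0.27 for Penk, -0.28 to 0.17 for Tacr3, -0.024 to 0.30 for Hspa5 and -0.038 to 0.15 for Stat3. Outside these results, values of genes named above that were not called also changed sign, among them, without the cx controls, Fstl5 in DE from -0.29 to 0.19, Luc7l3 in DE from -0.46 to 0.11, Rbm25 in DE from -0.32 to 0.06 and, in dorsal sums, Luc7l3 from -0.54 to 0.03, Rbm25 from -0.42 to 0.03, RMST_1 from 0.18 to -0.03 and Vps13b from -0.03 to 0.05 (0.16 after thinning). In DI, Luc7l3 went from -0.68 to -0.12 and Rbm25 from -0.58 to -0.07 without the cx controls.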
